A study of Heterocephalus glaber with 6 samples.

Results

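The 4 libraries of carcinogen-treated naked mole-rat epidermis were compared with the 4 libraries of acetone-treated epidermis, so that all 8 libraries of the series, from 6 GEO samples, entered the comparison. Treated libraries were the 2 DMBA and the 2 DMBA/TPA libraries, each the one count column of its sample. Acetone libraries were the 2 count columns of each of the 2 control samples, 1 for the DMBA set and 1 for the DMBA/TPA set. The set was kept as a block, so that each treatment was measured against its own controls, and the comparison asked which differences from acetone the 2 regimens had in common.

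All animals were wild type and 6 to 7 months old, and the epidermis was separated from the dermis before RNA was taken. The DMBA libraries came from dorsal skin that had received a single dose of 100 µl DMBA at 1 mg/ml and was harvested on day 10. The DMBA/TPA libraries came from skin that received the same single dose and then TPA at 0.1 mg/ml 2 times per week, with harvest on day 46. Both control groups received acetone, the solvent of both agents, and no day of harvest is stated for them in the sources used here. Regimen and time therefore differ together, and separate animals are not stated for the libraries, so p-values here reflect the spread of these libraries alone, part or all of which may be technical.

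DMBA (7,12-dimethylbenz[a]anthracene) is a polycyclic aromatic hydrocarbon. Cells oxidise it, through enzymes induced by the aryl hydrocarbon receptor, to products that bind DNA, and a single dose on skin serves as the initiator in mouse skin carcinogenesis. TPA (12-O-tetradecanoylphorbol-13-acetate) is a phorbol ester that activates protein kinase C and, given repeatedly, serves as the promoter, which in mouse skin brings inflammation and thickening of the epidermis. The naked mole-rat is a long-lived rodent in which spontaneous tumours are rare. In bulk epidermis, fewer cells of a type and less RNA per cell cannot be told apart.

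The tables list 33281 gene IDs, referred to as loci, and none could be matched to a gene symbol. The loci were of 2 kinds, 16308 with Ensembl-format IDs and 16973 with IDs of assembled loci (MSTRG), and the Ensembl-format loci held 3.47% of all counts. Neither gene lists nor cell type markers could be read, and whether the samples carry the markers of epidermis could not be checked for the same reason. Total counts lay between 30080934 and 38124702 in the treated libraries and between 22852358 and 27486387 in the acetone libraries, so every treated library was deeper (two-sided exact permutation of libraries within sets, p = 0.0556, the smallest that 36 splits can give, so that 0.05 cannot be reached). Levels are given in CPM, which divides a count by the total of its library, after scaling by TMM, a method that takes most loci as unchanged. A locus is called where edgeR's quasi-likelihood test gave it a Benjamini-Hochberg adjusted p below 0.05.

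Carcinogen treatment was accompanied by changes in both directions. Of the 17075 loci tested, 13.2% were called, with 1213 (7.1%) higher and 1046 (6.13%) lower in the treated epidermis. Most of the changes were moderate. The called loci that rose had a median log2 fold change of 0.91, with the middle of the distribution between 0.71 and 1.18 (quartiles), and 468 of them were past 2-fold and 54 past 4-fold. Those that fell had a median of -0.96, with quartiles of -1.19 and -0.78, and 481 were past 2-fold and 21 past 4-fold. Over all tested loci the median absolute log2 fold change was 0.40, against 0.93 for the called ones. The balance of the directions depended on the scaling. With upper-quartile scaling 938 loci were called higher and 1483 lower, and with total counts alone 469 higher and 2812 lower, where the median log2 fold change over all loci was -0.34. Under TMM, upper-quartile and total-count scaling and also in DESeq2, 467 loci were called higher and 1046 lower. The median over all loci was -0.015 under TMM and -0.106 with upper-quartile scaling. Both other edgeR scalings thus moved loci downward, which favours keeping the lower calls, so they put only the higher calls to a test.

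Many loci separated the 4 treated libraries from the 4 acetone libraries without overlap. In 1688 loci (9.89% of those tested) every treated CPM lay above every acetone CPM, and in 1777 (10.4%) every treated CPM lay below. This near balance depended on the scaling, since with total counts alone 624 loci lay above and 3323 below. The size of both counts depended on single libraries, with 2903 above and 2835 below without the second DMBA library and 2587 above without the second DMBA control library. Of the called loci, 1030 that rose and 955 that fell were of this kind, while in 274 called loci at least 1 treated library reached into the acetone range. A further 1480 loci showed no overlap but were not called.

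The 2 directions differed in the abundance of their loci. The called loci that rose had a median level of 4.53 log2 CPM and those that fell 3.24 log2 CPM, against 3.36 over all tested loci. Between 0 and 3 log2 CPM, 4.38% of the loci were called higher and 8.36% lower. Between 3 and 6 log2 CPM the order was the other way, with 10.2% higher and 6.28% lower, and above 6 log2 CPM 10.4% were higher and 5.63% lower. Under 0 log2 CPM only 0.79% of 2151 loci were called in either direction. The higher majority above 3 log2 CPM did not hold under the other edgeR scalings. With upper-quartile scaling 7.62% rose and 8.84% fell between 3 and 6 log2 CPM, against 3.54% and 10.6% between 0 and 3, and with total counts alone 3.53% rose and 17.1% fell, against 1.79% and 17.9%.

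**Figure D1:**
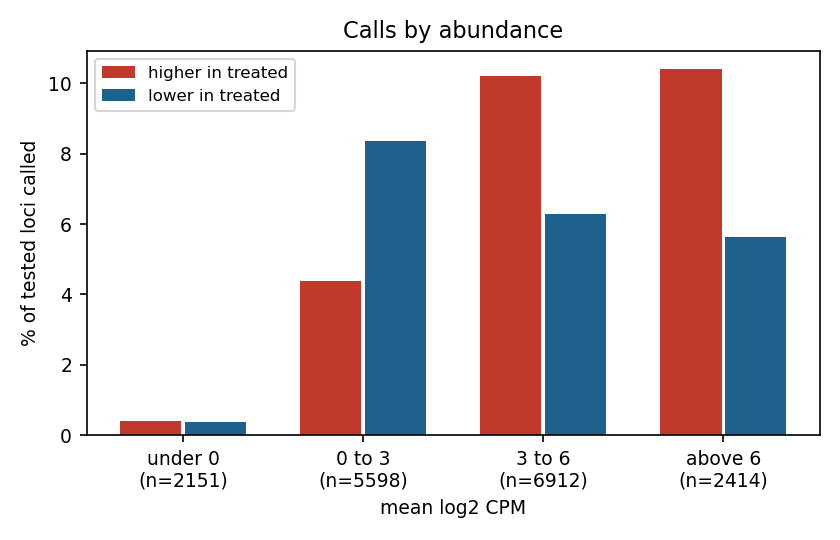
Percent of tested loci called higher (red) or lower (blue) in treated than in acetone epidermis, by class of mean log2 CPM, with the number of loci tested under each class. Lower calls were more frequent between 0 and 3 log2 CPM (8.36% against 4.38%), and higher calls were more frequent above 3 log2 CPM under the TMM scaling shown, but not under upper-quartile or total-count scaling.

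Assembled loci were called more often than Ensembl-format loci, at 14.9% of 13276 against 7.5% of 3799. Their median level was 3.81 log2 CPM, against 1.89 log2 CPM for the Ensembl-format loci. Among assembled loci 7.81% rose and 7.06% fell, and among Ensembl-format loci 4.63% rose and 2.87% fell.

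The differences of the called loci were larger in DMBA/TPA than in DMBA. Among the loci that rose, the median difference in mean log2 CPM from the own controls was 1.17 in DMBA/TPA and 0.59 in DMBA, and 998 of the 1213 differed more in DMBA/TPA. Among those that fell, the medians were -1.08 in DMBA/TPA and -0.81 in DMBA, and 804 of the 1046 differed more in DMBA/TPA. Larger DMBA/TPA differences were a trait of all tested loci: their median absolute difference was 0.60 in DMBA/TPA and 0.34 in DMBA, and 68% differed more in DMBA/TPA, against 82.3% of the called loci that rose and 76.9% of those that fell. Every one of the 2259 called loci had the same sign in both sets, where this held for 64% of all tested loci. That is a property of the test and not a separate result, since in a model with a single treatment term a disagreement between the sets counts as error. In all, 170 called loci rose and 201 fell by more than 2-fold in each set by itself. Over all tested loci, 284 (1.66%) were higher by that much in both sets and 429 (2.51%) lower, while 315 (1.84%) were higher in DMBA and lower in DMBA/TPA, and 88 (0.515%) the reverse.

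**Figure D2:**
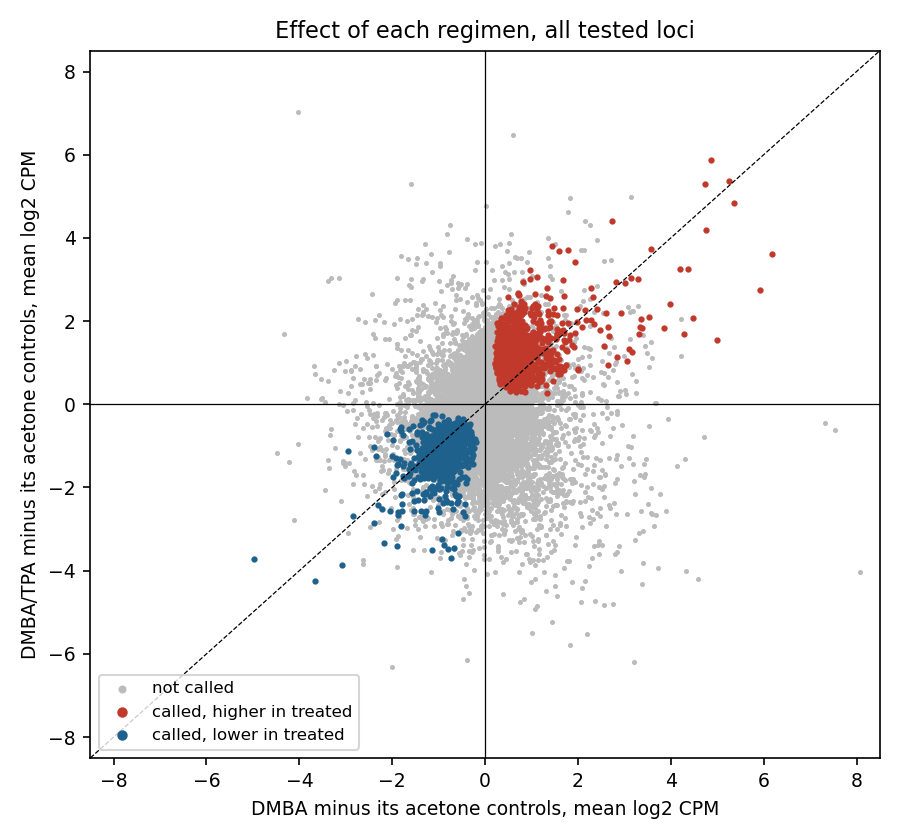
Difference in mean log2 CPM between treated and acetone libraries for each of the 17075 tested loci, with DMBA on the horizontal axis and DMBA/TPA on the vertical axis. Loci called higher (red, 1213) lie in the upper right quadrant and loci called lower (blue, 1046) in the lower left quadrant, and most lie on the DMBA/TPA side of the dashed line of equal effects.

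The number of calls was far from equal in the sets taken alone. With DMBA and its own controls only, 16 of 17354 loci were called (0.0922%), all higher, and with DMBA/TPA and its own controls only, 7338 of 17452 (42%). These comparisons use the same libraries as the joint one and are given beside it for that reason only. At an unadjusted p below 0.05 (edgeR), 2080 loci passed in the DMBA set and 8870 in the DMBA/TPA set. The 2 DMBA libraries also differed more from each other than the 2 DMBA/TPA libraries (chi-square per degree of freedom 137.4 against 34.8). For their controls it was 41.2 and 26.2. The part of this spread in the number of calls was not tested, so these numbers do not measure the size of the effects. When the 8 libraries were fitted as 4 groups, so that the difference between the regimens no longer counted as error, the mean of both effects was called for 4552 loci (26.7%), of which 92.7% had the same sign in both sets.

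The loci named here are the 2 of smallest p in each direction among called loci that averaged 2 log2 CPM or more and showed no overlap between treated and acetone libraries, of which 934 rose and 725 fell. The sources used here do not say what they encode. MSTRG.7544, an assembled locus, had 77.0 and 74.0 CPM after DMBA and 60.2 and 70.3 CPM after DMBA/TPA, against 23.4 and 23.9 CPM in the DMBA controls and 19.8 and 18.1 CPM in the DMBA/TPA controls. After TMM scaling, all 4 treated libraries were thus more than 2-fold above every acetone library. The treated mean was 70.4 ± 7.29 CPM and the acetone mean 21.3 ± 2.79 CPM (SD, n = 4 each), a log2 fold change of 1.73 ± 0.122 (SE; edgeR adjusted p = 0.00122). With total counts alone the log2 fold change was 1.4.

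ENSHGLG00000017641 had 14.6 and 15.3 CPM after DMBA and 12.2 and 12.1 CPM after DMBA/TPA, against 2.23 and 1.62 CPM in the DMBA controls and 2.75 and 2.42 CPM in the DMBA/TPA controls. The groups stood far apart, with the lowest treated library above 12 CPM and the highest acetone library below 3 CPM. The log2 fold change was 2.59 ± 0.219 (SE; edgeR adjusted p = 0.00309). It was 2.96 for DMBA and 2.23 for DMBA/TPA in the 4-group model, and this difference between the regimens did not pass the test (-0.72, edgeR adjusted p = 0.248).

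Of the loci that fell, MSTRG.11475 had 8.79 and 7.77 CPM after DMBA and 15.5 and 16.9 CPM after DMBA/TPA, against 35.3 and 21.8 CPM in the DMBA controls and 49.1 and 62.8 CPM in the DMBA/TPA controls. Levels in the DMBA/TPA set were higher than in the DMBA set in treated and acetone epidermis alike, and the log2 fold changes of the 2 regimens, -1.78 for DMBA and -1.79 for DMBA/TPA, were nearly equal. The joint log2 fold change was -1.79 ± 0.181 (SE; edgeR adjusted p = 0.00389). MSTRG.1180 had 24.0 and 21.5 CPM after DMBA and 27.3 and 19.0 CPM after DMBA/TPA, against 81.7 and 56.3 CPM in the DMBA controls and 76.7 and 92.1 CPM in the DMBA/TPA controls. Here the treated libraries of both sets fell into the same range. The log2 fold change was -1.73 ± 0.179 (SE; edgeR adjusted p = 0.00389).

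**Figure D3:**
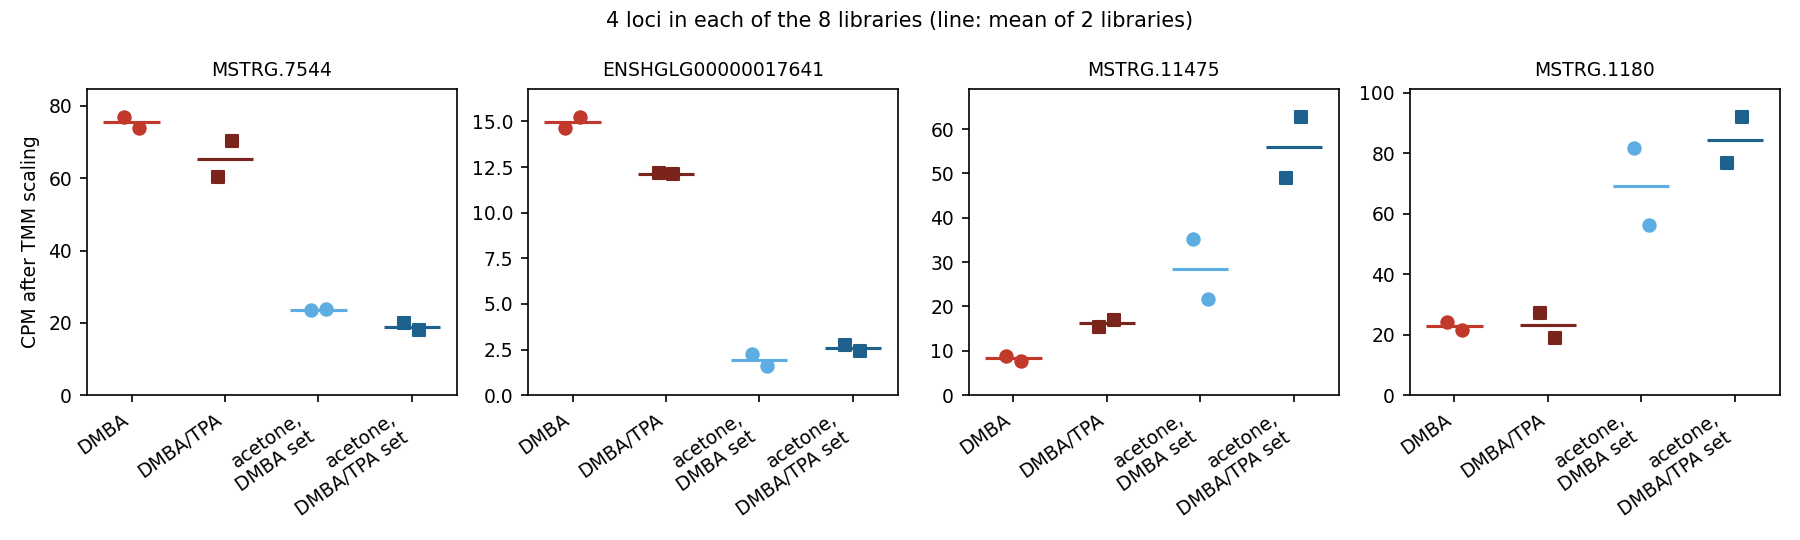
CPM after TMM scaling of the 4 named loci in each of the 8 libraries (points), with the mean of the 2 libraries of a group (line). MSTRG.7544 and ENSHGLG00000017641 are higher in all 4 treated libraries, and MSTRG.11475 and MSTRG.1180 are lower in all 4 treated libraries than in any acetone library.

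The 4 named loci kept their calls whichever single library was left out, with adjusted p at or below 0.0233 (edgeR). They had been picked for small p and no overlap in these same libraries, which favours this outcome. The calls ended when the 2 count columns of each control sample were summed into 1 library, which leaves 1 acetone library per set (edgeR adjusted p = 0.0527 for MSTRG.7544, ENSHGLG00000017641 and MSTRG.11475, and 0.056 for MSTRG.1180), although their log2 fold changes stayed at 1.71, 2.56, -1.80 and -1.75. In the DMBA set alone, ENSHGLG00000017641 passed the test and MSTRG.7544, MSTRG.11475 and MSTRG.1180 did not (edgeR adjusted p = 0.0626, 0.118 and 0.106). Over their 20 alternatives each the adjusted p ranged from 7.39e-32, with DESeq2, to 0.118.

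The total number of calls varied widely with the library left out. It was 101 without the second and 213 without the first DMBA/TPA control library, 134 without the second and 195 without the first DMBA/TPA library, 528 without the first DMBA control library, 909 without the first DMBA library, 2718 without the second DMBA control library and 4164 without the second DMBA library. Loci higher in treated epidermis were the majority in each of these fits, which all used TMM, a scaling on which the balance of the directions depended. With the control columns summed it was 2.

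A smaller set of loci was called in the joint fit and in each of the 8 fits without 1 library, 70 higher and 19 lower. All of them were also called in the same direction with upper-quartile scaling, total counts alone and DESeq2, and none overlapped between treated and acetone libraries. For the 19 lower loci this was favoured, since upper-quartile and total-count scaling move loci downward. The 70 that rose had a median log2 fold change of 1.43, with 0.95 as the smallest, and a median level of 4.58 log2 CPM. The difference from the own controls had a median of 1.63 in DMBA/TPA and 1.36 in DMBA, and the smallest was 0.82 in DMBA/TPA and 0.84 in DMBA. The 19 that fell had a median log2 fold change of -1.71, with medians of -1.73 in DMBA/TPA and -1.57 in DMBA. Of the 70, 57 were assembled and 13 Ensembl-format loci, and of the 19, 15 were assembled and 4 Ensembl-format loci. The effects of the regimens differed by the test in 3 of the 70 (edgeR, where 1012 of 17075 loci, 5.93%, were called for that difference). This set was picked by repeated use of the same libraries, so its size and direction are a description.

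Because the 2 sets share no library, calls made in one can be read in the other. Of the 7202 loci called in DMBA/TPA against its own controls alone that were also tested jointly, 72.6% had the same direction in DMBA, against 57.8% of the 9721 loci not called. For 39.8% of the called loci the 2 DMBA libraries lay beyond both DMBA controls in that direction, and for 10.5% they lay beyond both in the opposite direction. The corresponding shares were 25.8% and 15.8% among loci not called in DMBA/TPA. Loci that rose after DMBA/TPA held their direction in DMBA more often (76% of 3809) than loci that fell (68.8% of 3393), where 22% and 20.1% of all loci tested in that set had been called higher and lower. With total counts alone it was the other way, with 70.1% of 1455 that rose and 78% of 6518 that fell. Loci are not independent replicates, so these shares carry no p-value.

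The agreement between the regimens did not grow with the size of the DMBA/TPA effect on the falling side. Loci with a DMBA/TPA log2 fold change between -2 and -1 had a median DMBA effect of -0.41, and 31.6% of these 1983 loci were higher after DMBA. For the 441 loci between -3 and -2 the median DMBA effect was 0.11, and for the 206 loci below -3 it was 0.40, with 60.7% higher after DMBA. On the rising side the median DMBA effect was 0.15 for DMBA/TPA effects between 0.5 and 1, 0.33 between 1 and 2, 0.61 between 2 and 3 and 0.63 above 3. The same break was present without low counts. Among loci that averaged 2 log2 CPM or more, a restriction chosen after seeing the data, the median DMBA effect was 0.51 in 130 loci with a DMBA/TPA effect between -3 and -2, and 1.13 in 30 loci below -3, of which 83.3% were higher after DMBA.

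**Figure D4:**
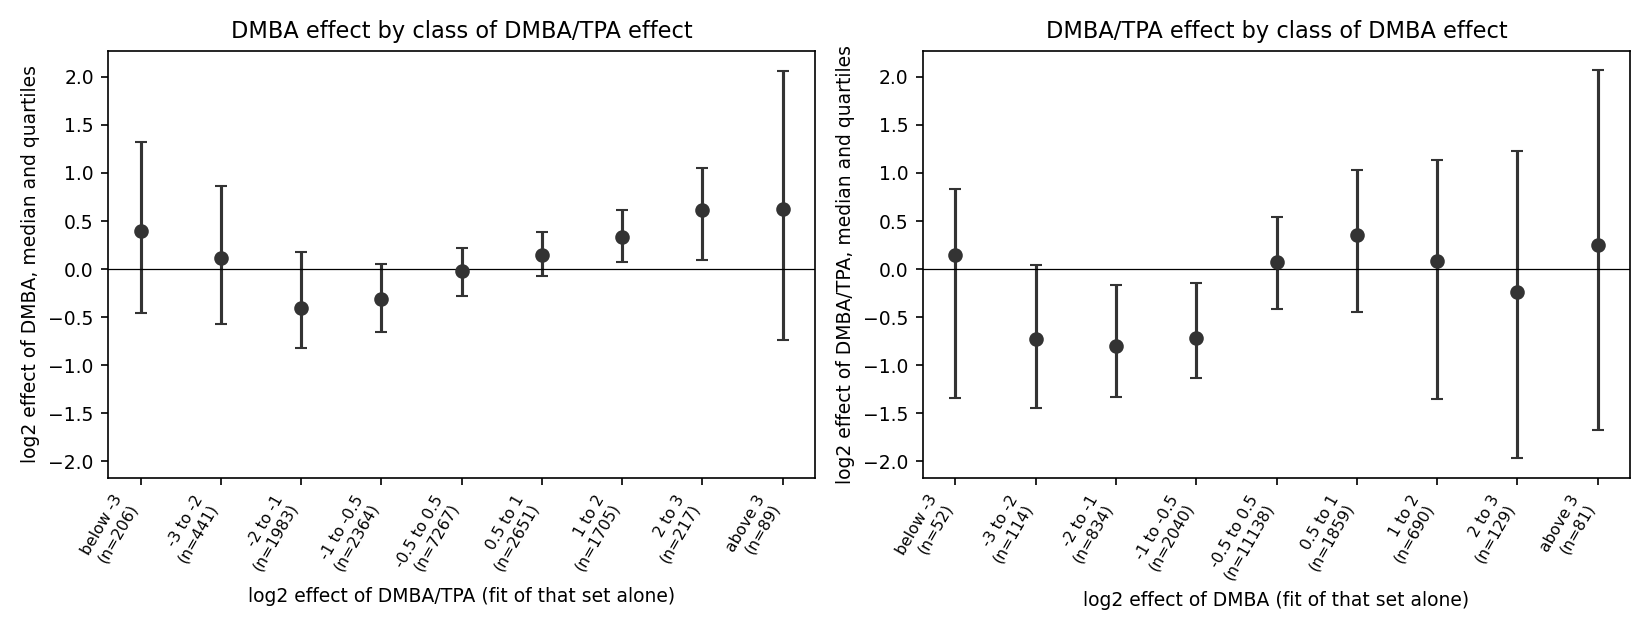
Median and quartiles (bars) of the log2 effect of one regimen in classes of the log2 effect of the other, fitted on that set alone, with the number of loci per class. The left panel shows DMBA by class of DMBA/TPA effect, where the median DMBA effect is below 0 for moderate falls and above 0 for falls past -2. The right panel shows DMBA/TPA by class of DMBA effect, where moderate DMBA falls go with DMBA/TPA falls and for DMBA rises past 1 the medians are 0.08, -0.23 and 0.25 with wide quartiles.

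Read the other way, loci that fell moderately after DMBA mostly fell after DMBA/TPA as well. The median DMBA/TPA effect was -0.72 for 2040 loci with a DMBA effect between -1 and -0.5, of which 20.6% were higher after DMBA/TPA, and -0.80 for 834 loci between -2 and -1. For loci that rose after DMBA it was 0.35 between 0.5 and 1, 0.08 between 1 and 2, -0.23 between 2 and 3, and 0.25 above 3. Of the 54 loci with at least 2 log2 CPM and a DMBA difference above 2, 37 were lower after DMBA/TPA and 12 were called in the joint comparison. Of the 165 loci with a DMBA/TPA difference below -2 at that level, 118 were higher after DMBA and 28 were called. The 120 loci with a DMBA/TPA difference above 2 were more alike in the 2 sets, with 20 lower after DMBA and 76 called. Over all tested loci 13.2% were called, and between 3 and 6 log2 CPM 16.5%.

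In these outer classes the 2 sets of controls also stood apart. For those 54 loci the median level was 4.86 and 5.01 log2 CPM after DMBA and 3.14 and 3.50 log2 CPM after DMBA/TPA, against 1.83 and 2.74 in the DMBA controls and 4.36 and 3.74 in the DMBA/TPA controls. For the 165 loci it was 3.48 and 3.94 log2 CPM after DMBA and 2.12 and 1.82 log2 CPM after DMBA/TPA, against 2.96 and 3.42 in the DMBA controls and 4.71 and 4.43 in the DMBA/TPA controls. The DMBA/TPA controls were thus the highest group in the second class. The 120 loci with a DMBA/TPA difference above 2 showed a control gap in the other direction, at 4.76 and 4.21 log2 CPM after DMBA and 5.43 and 5.48 log2 CPM after DMBA/TPA, against 3.91 and 4.05 in the DMBA controls and 2.93 and 3.05 in the DMBA/TPA controls. The part of the control difference in these effects was not tested, and the classes were formed from the same control values.

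The counts were concentrated on fewer loci in the treated epidermis. The most abundant loci that together held 50% of the counts numbered 186 and 255 after DMBA and 101 and 53 after DMBA/TPA, against 374 and 329 in the DMBA controls and 389 and 431 in the DMBA/TPA controls. Every treated library lay below every acetone library (means of 148.8 ± 89.7 and 380.8 ± 42.1, SD, n = 4 each; exact permutation within sets, p = 0.0556, again the smallest possible, and 0.0833 after Benjamini-Hochberg adjustment over 3 such measures). The values were the same after every library had been thinned to 22852358 counts. The number of loci with at least 1 count did not separate the libraries at that depth, at 19430 ± 230.5 in treated and 19789 ± 351.8 in acetone libraries (SD, n = 4 each, exact permutation test, p = 0.278, also after adjustment).

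**Figure D5:**
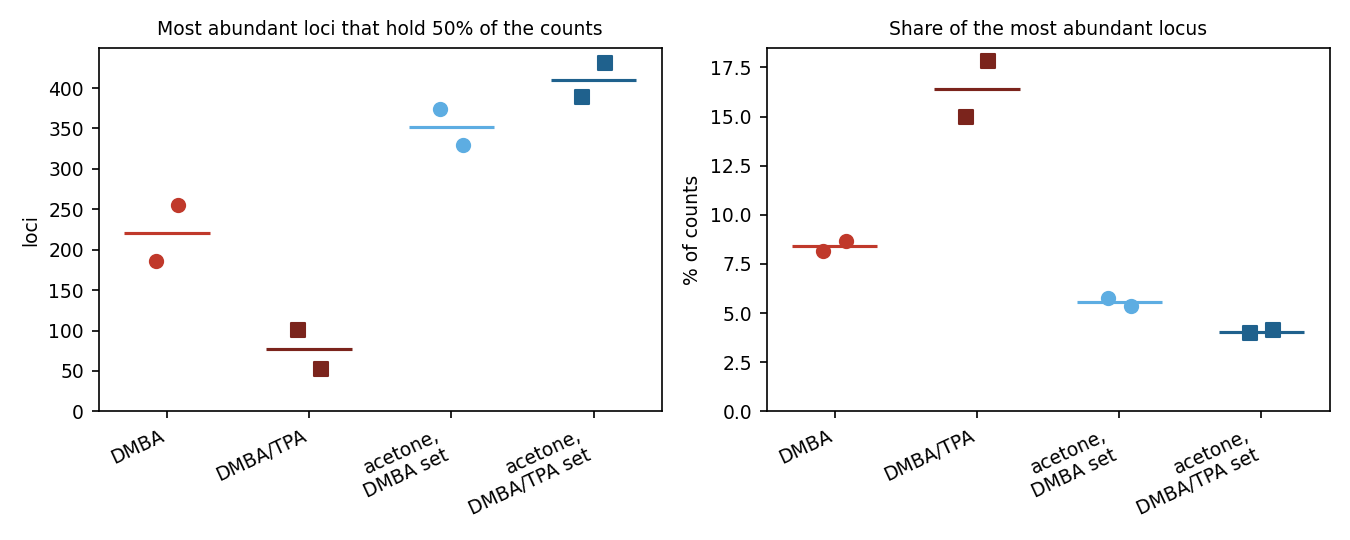
Left, number of most abundant loci that together hold 50% of the counts of a library; right, percent of counts in the single most abundant locus; points are libraries and lines the mean of 2. The 4 treated libraries have 53 to 255 loci at 50% of the counts, against 329 to 431 in the 4 acetone libraries.

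Of the 10 most abundant loci, all assembled, 5 rose in treated epidermis (edgeR), where 10.4% of the 2414 loci above 6 log2 CPM were called higher. The number among the 10 was 3 in DESeq2 and between 0 and 5 with 1 library left out, with 0 without any 1 library of the DMBA/TPA set. The most abundant one took 8.18% and 8.65% of the counts after DMBA and 15% and 17.8% after DMBA/TPA, against 5.76% and 5.35% in the DMBA controls and 3.99% and 4.12% in the DMBA/TPA controls. Its log2 fold change was 1.64 ± 0.376 (SE; edgeR adjusted p = 0.0262). The call was lost in DESeq2 (adjusted p = 0.112), with the control columns summed (edgeR adjusted p = 0.18) and without any 1 library of the DMBA/TPA set or the first DMBA control library (edgeR adjusted p = 0.0596 to 0.109), and the adjusted p over its alternatives ranged from 8.36e-05 to 0.432. The sixth and the eighth most abundant loci rose as well, with log2 fold changes of 1.69 and 1.38 (edgeR adjusted p = 0.0152 and 0.0192), and neither overlapped between treated and acetone libraries. Leaving these 10 loci out before scaling gave 2184 calls in all, 1185 higher and 999 lower.

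Few loci were present in one kind of epidermis alone. Counts were found in all 4 treated libraries and in 0 acetone libraries for 19 loci, and in all 4 acetone libraries and 0 treated libraries for 22 loci. At 5 or more counts in every library of the detected kind, 9 and 4 of them were left. After thinning to equal totals the numbers were 15 and 22. Of the loci called, 5 had no count in one kind: 4 were at least 31.1- to 98.7-fold higher in treated epidermis and 1 was at least 63.2-fold lower, against a floor of 3 counts over the 4 libraries without counts and after TMM scaling. These bounds cover counting error only. With the 5 loci at their bounds, the medians of the called loci were the same, 0.91 for those that rose and -0.96 for those that fell.

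Called loci with neighbouring numbers in their assembled IDs shared a direction more often than they differed. Where an assembled locus rose, the locus with the next number rose in 12.9% of 863 pairs and fell in 3.36%. Where it fell, the next one fell in 12.4% of 728 pairs and rose in 6.32%. After loci that were not called the shares were 7.64% higher and 6.41% lower, in 9135 pairs. The sources used here do not say what the numbers stand for, and a count of loci may not be a count of genes.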

How the data were processed

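The authors deposited raw counts for each gene ID, per the labels. The 8 columns hold whole numbers with unequal totals. Libraries were depleted of ribosomal RNA and strand-directional, per the labels' protocols. The submitters' processing notes name TopHat2, Bowtie2, FastQC and cutadapt but neither their roles nor versions. The sources used here do not give the genome build, annotation, counting tool or strand setting, so reads of overlapping, antisense or near-identical loci may be split or shared.

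Each column was taken as 1 library. One DMBA/TPA column, with only a number as its header, was mapped by the file it is in. The libraries within groups were not duplicates, with a chi-square per degree of freedom of 137.4 and 34.8 in DMBA and DMBA/TPA and of 41.2 and 26.2 in their controls, over loci whose 2 counts summed to 20 or more. Of the loci, 9626 had no count. In the table of RefSeq genes (assembly H.glaber_assembly_v1.0) no Ensembl IDs are filled in over 42221 rows, and 0 IDs matched, so the 9 gene lists, the cell type markers and the rule for genes with symbols could not be used. In their place the rule for IDs without symbols applied: at most 2 loci per direction, of smallest p, called, averaging 2 log2 CPM or more, with no overlap.

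The test was run in edgeR 4.0.16 (R 4.3.3): filterByExpr on treated and acetone (minimum count 10, total 15), TMM, and a robust quasi-likelihood fit with set and treatment as terms, a biological coefficient of variation of 31.1% and 5 residual degrees of freedom. The 4-group model had 4 residual degrees of freedom and 24.1%. Dividing a log2 fold change by the root of its F statistic gave its standard error. Log2 CPM used a prior count of 2. Per-library values were compared by exact permutation over the 36 splits within sets. The procedure was tested on simulated counts. Of changed loci it recovered 3 of 67 at 1.5-fold, 26 of 67 at 2-fold and 45 of 66 at 4-fold. Of 16875 unchanged loci it called 10. The changed loci were few, left out low counts and had the same fold in both sets. In the data 13.2% of loci were called and the regimens differed at many, so these rates do not give the sensitivity of the comparison. Alternatives were DESeq2 1.42.0, other scalings, filters, blocks and libraries left out. The comparison and the lists were chosen with earlier results of these data known.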

Additional observations from a re-analysis of the deposited data

Results flagged for a closer look

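The effects of the 2 regimens differed from each other in 1012 loci by the test of the difference itself (edgeR interaction contrast in the 4-group model, adjusted p below 0.05, 5.93% of 17075 loci). In 603 of them the DMBA/TPA effect was the lower, with median differences from the own controls of -1.62 in DMBA/TPA and 0.70 in DMBA, and 539 had opposite signs in the 2 sets. In the other 409 the DMBA/TPA effect was the higher, with medians of 1.56 in DMBA/TPA and 0.07 in DMBA, and 179 had opposite signs. In the 603 loci the DMBA/TPA controls were above the DMBA controls by a median of 1.11 on the log2 scale, and the DMBA/TPA libraries below the DMBA libraries by a median difference of -1.09. In the 409 loci these medians were -0.61 between the controls and 0.83 between the treated libraries. The loci were chosen by a contrast that contains both of these differences, which largely fixes their signs. None of the 4 named loci was among the 1012. They had been picked by smallest p in a fit where disagreement between the sets counts as error, which favours this outcome. No library stood apart from the other 3 of its kind in 20 groups of 4 values (Dixon's criterion at 95%). The values were those of the 4 named loci, picked for no overlap and small p, and whole-library measures, with the 2 regimens pooled. They therefore cannot show a library that differs at other loci. The 2 DMBA libraries differed most within a group (chi-square per degree of freedom 137.4, against 26.2 to 41.2 in the other groups). Without the second DMBA library the calls went from 2259 to 4164.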

How the results depend on the processing

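The count of called loci, 2259 in all, 1213 higher, 1046 lower and 2259 with the same sign in both sets, stayed within 1.5 times under upper-quartile scaling, without the 10 most abundant loci, with no low-count filter, with at least 1 CPM in 4 libraries, without the set block and with a term for sample number. It moved to 3653, 1927, 1726 and 3638 in DESeq2, to 4552, 2465, 2087 and 4218 in the 4-group model, to 2, 2, 0 and 2 with the control columns summed (edgeR, 3661 at an unadjusted p below 0.05), to 16, 16, 0 and 9 in the DMBA set alone (edgeR, 2080 unadjusted) and to 7338, 3837, 3501 and 5229 in the DMBA/TPA set alone. Total counts alone gave 469 higher and 2812 lower calls, and 624 loci above and 3323 below without overlap. With the control columns summed these non-overlapping loci numbered 2556 and 3230, where fewer libraries make overlap rarer. Without 1 library the calls ranged from 101 to 4164, with 77 to 2231 higher, 24 to 1933 lower and 101 to 4162 of the same sign, and the non-overlapping loci from 1849 to 2903 above and from 1958 to 2835 below. Of the 2259 calls, 2257 were also made in the same direction by DESeq2, 1515 with total counts and 1984 with upper-quartile scaling. The cause of the shifts between libraries left out was not tested.

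Sample numbers are shared by the treated groups only, and the labels do not say whether they pair libraries. The correlation of the deviations across loci was -0.0017. With 2 libraries per group this cannot show whether the numbers pair them. With the number as a replicate block, 1779 loci were called, 883 higher and 896 lower. None of the 4 named loci changed direction in any of their 20 alternatives, which their selection in these libraries favoured. The comparison of 4 with 4 libraries inside 2 sets limits exact tests to p = 0.0556, and loci under 0 log2 CPM were rarely called at this depth.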
